A study of Mus musculus with 6 samples.

Results

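The 47 genes described here serve the cell cycle and DNA replication, and they were followed in γδ T cells of the mouse spleen that did or did not express the transcription factor Eomes. They were listed by name, 47 of the 30342 gene names on the array, and no threshold on a measured value entered the rule. By role they fall into 11 genes of the replication origin and fork, 5 of nucleotide supply, 18 of G2 phase and mitosis, 10 G1 and S cyclins, kinases and E2F factors, and 3 inhibitors of cyclin-dependent kinases (CDKs). The first 2 roles together are called the replication genes below, and the 18 genes of G2 phase and mitosis are called the mitosis genes.

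All mice carried the reporter allele Eomes-IRES-GFP (Eomestm1.1Twa) on the C57BL6 background, in which green fluorescent protein (GFP) is made from the Eomes transcript, and no treatment or other allele set the groups apart. Spleen cells were depleted of cells bearing B220, CD4 or CD8β, and TCRγδ+ CD3+ TCRβ- cells were sorted as GFP+ (Eomes-positive) or GFP- (Eomes-negative). Each of 3 independent sorts pooled 4 to 6 spleens and gave 1 array of each group, so the 6 arrays form 3 pairs. The mice were 9 weeks old in sort 1, 9.5 weeks in sort 2 and 7.5 weeks in sort 3, and the labelled RNA came from 9 ng in sorts 1 and 2 and from 4 ng in sort 3. The p-values of the test on group alone therefore measure the spread between pools of mice, and 3 arrays against 3 limit the precision. In such bulk RNA, fewer dividing cells and less RNA per cell cannot be told apart.

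A cell that divides copies its DNA in S phase and separates the copies in mitosis, and the genes for these steps are switched on in waves. E2F factors, released from the retinoblastoma protein when cyclin D and cyclin E kinases act, drive the genes for replication. The DREAM and MuvB complexes act through the cell cycle genes homology region (CHR), often near CCAAT boxes bound by NF-Y, and time the later wave for G2 and mitosis. Most T cells of a resting spleen are outside the cycle, and many replication proteins, among them the MCM helicase, persist longer than the mitotic ones.

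Promoter windows from RefSeq (mouse build GRCm38.p6, 250 bases before to 50 after an annotated start) were given for 38 of the 47 genes, and Mcm4, Gins1, Gins2, Ccna2, Aurkb, Tpx2, Ccnd1, Ccnd2 and Ccne2 had no entry. The 200 bases before the start are shown for 4 mitosis genes and 2 helicase genes as examples. These roles were taken because the median difference between the groups was large for the mitosis genes and near 0 for the replication genes. Within a role the choice did not follow the size of the difference. Cdk1 (-0.25) is shown, whereas Birc5 (-1.52), whose window held none of the motifs below, is not. Each window shown carries a CHR or E2F motif, which many other windows of the same roles lack. Capitals mark E2F motifs (TTTCGCGC, TTTGGCGC, TTTCCCGC or TTTGCGCC), CHR motifs (TTTGAA or TTCGAA) and the CCAAT box, on either strand, so that GCGCGAAA and GCGCCAAA, TTCAAA and ATTGG are the reverse complements. The windows lie at chr9:70421555-70421754 (Ccnb2, minus strand), chr11:99024190-99024389 (Top2a, minus), chr7:135716380-135716579 (Mki67, minus), chr10:69352913-69353112 (Cdk1, minus), chr8:75109309-75109508 (Mcm5, plus) and chr1:128359706-128359905 (Mcm6, minus), each printed 5′ to 3′ in the direction of the gene.
Ccnb2: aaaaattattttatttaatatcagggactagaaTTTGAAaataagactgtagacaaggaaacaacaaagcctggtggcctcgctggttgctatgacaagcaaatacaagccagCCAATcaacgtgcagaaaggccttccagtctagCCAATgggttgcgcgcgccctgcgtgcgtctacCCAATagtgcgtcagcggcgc
Top2a: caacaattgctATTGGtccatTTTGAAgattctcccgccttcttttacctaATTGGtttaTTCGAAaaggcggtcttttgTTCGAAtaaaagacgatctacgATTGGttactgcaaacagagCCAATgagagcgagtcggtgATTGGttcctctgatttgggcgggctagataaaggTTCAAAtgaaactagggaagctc
Mki67: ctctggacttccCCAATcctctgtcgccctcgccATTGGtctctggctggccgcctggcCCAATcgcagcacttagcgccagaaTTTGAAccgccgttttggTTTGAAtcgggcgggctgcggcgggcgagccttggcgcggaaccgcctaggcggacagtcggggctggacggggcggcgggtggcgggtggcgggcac
Cdk1: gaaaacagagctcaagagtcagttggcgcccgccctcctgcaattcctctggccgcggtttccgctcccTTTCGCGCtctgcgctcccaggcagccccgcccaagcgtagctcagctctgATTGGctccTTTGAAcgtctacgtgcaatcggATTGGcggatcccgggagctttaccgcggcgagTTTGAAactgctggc
Mcm5: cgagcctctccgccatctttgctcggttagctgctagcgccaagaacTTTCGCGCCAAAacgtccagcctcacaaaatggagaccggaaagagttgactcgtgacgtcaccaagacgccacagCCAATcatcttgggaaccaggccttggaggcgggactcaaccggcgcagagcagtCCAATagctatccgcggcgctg
Mcm6: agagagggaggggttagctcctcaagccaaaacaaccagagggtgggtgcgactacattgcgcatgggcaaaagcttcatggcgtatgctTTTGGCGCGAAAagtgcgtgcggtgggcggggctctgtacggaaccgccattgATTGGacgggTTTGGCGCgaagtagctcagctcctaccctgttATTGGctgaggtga

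Ccnb2 carried 1 CHR motif and 3 CCAAT boxes in this stretch, and Top2a carried 4 CHR motifs among 5 CCAAT boxes. Mki67 had 2 CHR motifs and Cdk1 had 2, the latter with the E2F motif TTTCGCGC upstream. In Mcm5 and Mcm6, 2 E2F motifs on opposite strands overlapped each other, and Mcm6 had another TTTGGCGC nearer the start. Over the whole 300-base windows, a CHR motif was present in 11 of 15 windows of mitosis genes (73.3%) and in 2 of 14 windows of replication genes (14.3%), beside 19.2% of all 32851 windows in the table. An E2F motif was present in 6 of 14 replication windows (42.9%), those of Cdc6, Cdt1, Mcm3, Mcm5, Mcm6 and Mcm7, in 1 of 15 mitosis windows (6.67%, Cdk1) and in 2.25% of all windows. A CCAAT box was present in 86.7% of mitosis windows, 64.3% of replication windows and 37.4% of all windows. These matches describe letters in a window and do not show that a factor binds there.

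**Figure D1:**
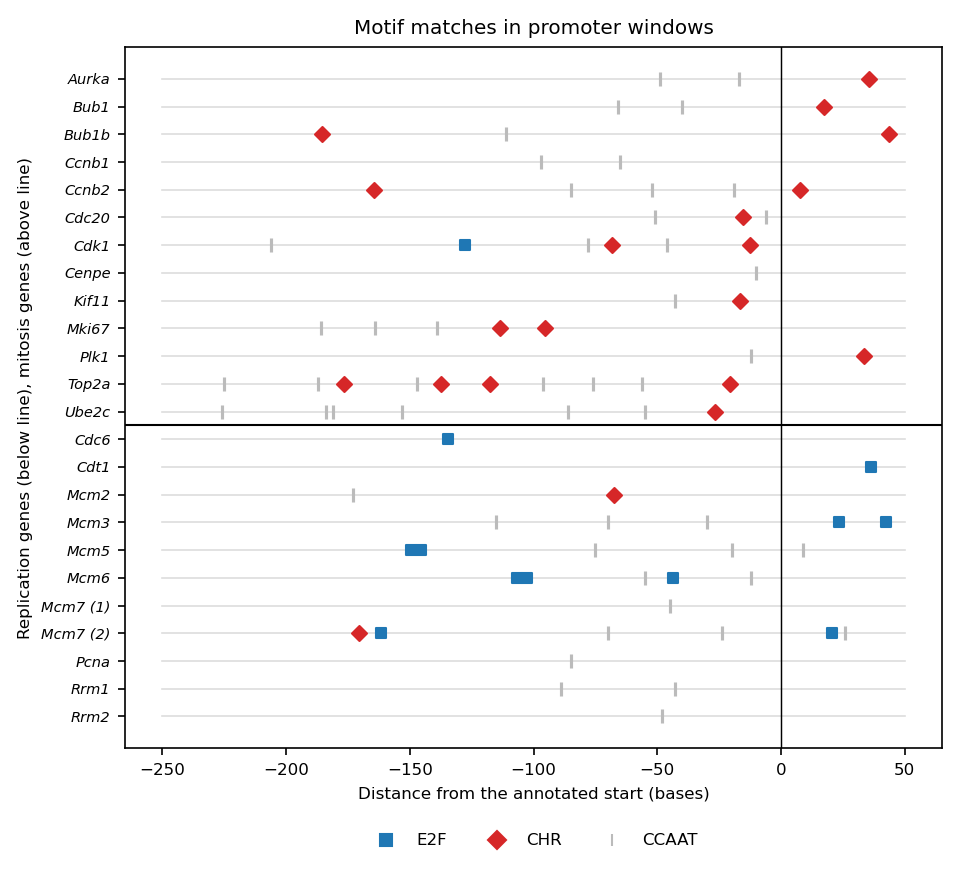
Motif matches in the promoter windows of mitosis genes (above the black line) and replication genes (below it), plotted by distance from the annotated start in bases. Only windows with at least 1 match are drawn, and a number after a name marks 1 of several windows of that gene. Red diamonds (CHR) lie in the upper block in 11 genes, and blue squares (E2F) lie in the lower block except for Cdk1; grey bars are CCAAT boxes.

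The levels below are log2 processed intensities relative to the 75th percentile of the array, so a level of 0 is the 75th percentile, and each gene is represented by its brightest probe. With 50% or more of its 4 spots well above background, a probe was taken as measured on that array. A gene had to be measured on 3 or more of the 6 arrays to be tested, which left 16413 genes in all and 43 of the 47 members. Aurkb and Ccne2 were well above background on 0 arrays, Cdc6 on 2 (1 of each group), and Cdkn1a, which encodes the inhibitor p21, on 2 Eomes-negative arrays only. Among the tested members, Cdk1 and Tpx2 were measured on 5 arrays and Bub1 and Cdk6 on 3, so their low values are close to background. No member was saturated on any array.

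The Eomes transcript was 4.76 higher on the log2 scale (SE 0.59, limma adjusted p 0.0178) in the cells sorted as GFP+. Of the genes listed for γδ T cells, 7 were on the array and measured on all 6 arrays (Cd3e, Cd3d, Cd3g, Cd247, Trat1, Sox13 and Tcrg-V1). Only Tcrg-V1 among them is a γδ receptor gene, so detection of the list does not set γδ T cells apart from other T cells. The arrays of a sort resembled each other: their deviations from the group means correlated at 0.81 to 0.82, and arrays of different sorts at -0.57 to -0.26. Raw 75th percentiles were 1578 to 1681 intensity units in sorts 1 and 2 and 533.4 to 550.2 in sort 3, and 47.7% to 56.6% of probes were measured. The difference between the groups was tested with limma on group alone. A fit with the sort as a block, called the blocked fit here, is given for cell cycle genes where it changes a call.

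Between Eomes-positive and Eomes-negative cells, the mitosis genes were lower in Eomes-positive cells while the replication genes were close to equal. The median difference (Eomes-positive minus Eomes-negative, log2) was -0.96 over the 17 tested mitosis genes and 0.12 over the 15 tested replication genes, beside -0.01 over all genes tested. Of the 17 mitosis genes 16 (94.1%) were lower in every sort, against 27.1% of all genes, with Cdk1 as the exception at 0.02 in sort 2. None of the 43 members passed limma's adjusted p of 0.05 on group alone, against 2.77% of all genes (1.2% higher and 1.57% lower), and 2 (E2f2 and Cdkn2c, both lower) had an unadjusted p below 0.05, against 12.2% of all genes. In the blocked fit 5 members passed, all of them mitosis genes and all lower: Top2a, Birc5, Ccnb2, Tpx2 and Plk1, which is 29.4% of the mitosis genes against 4.33% of all genes called lower there (3.66% higher and 7.98% in either direction). Within sorts 1, 2 and 3 the mitosis medians were -1.27, -0.78 and -1.02, and the replication medians were 0.27, 0.07 and 0.06. The mitosis median was -0.36 without the Eomes-positive array of sort 1, -0.47 without the Eomes-negative array of sort 2, -1.48 without the Eomes-negative array of sort 1 and -1.54 without the Eomes-positive array of sort 2, each of which leaves a sort with 1 array. It was -1.60 with the slide as a block and -0.52 with normexp background correction, and within slides it was -2.25 on slide 1 (sort 1 and the Eomes-negative array of sort 2) and -1.02 on slide 3 (sort 3), while slide 2 held 1 array. Across other scalings, filters, probe rules and the deposited table the blocked fit called 3 to 12 members, with Top2a, Birc5 and Ccnb2 in each of them. The 12 came with normexp, where 7 were mitosis genes and 1919 of all 16413 genes passed. The 3 came without a filter on dim probes, where 849 of 30342 genes passed. With sort 1 or sort 3 left out 0 members passed in the blocked fit, and with sort 2 left out 1 passed (Ccnb2). Calls over all 16413 genes fell as well, from 1310 to 142 without sort 1, 290 without sort 3 and 452 without sort 2.

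**Figure D2:**
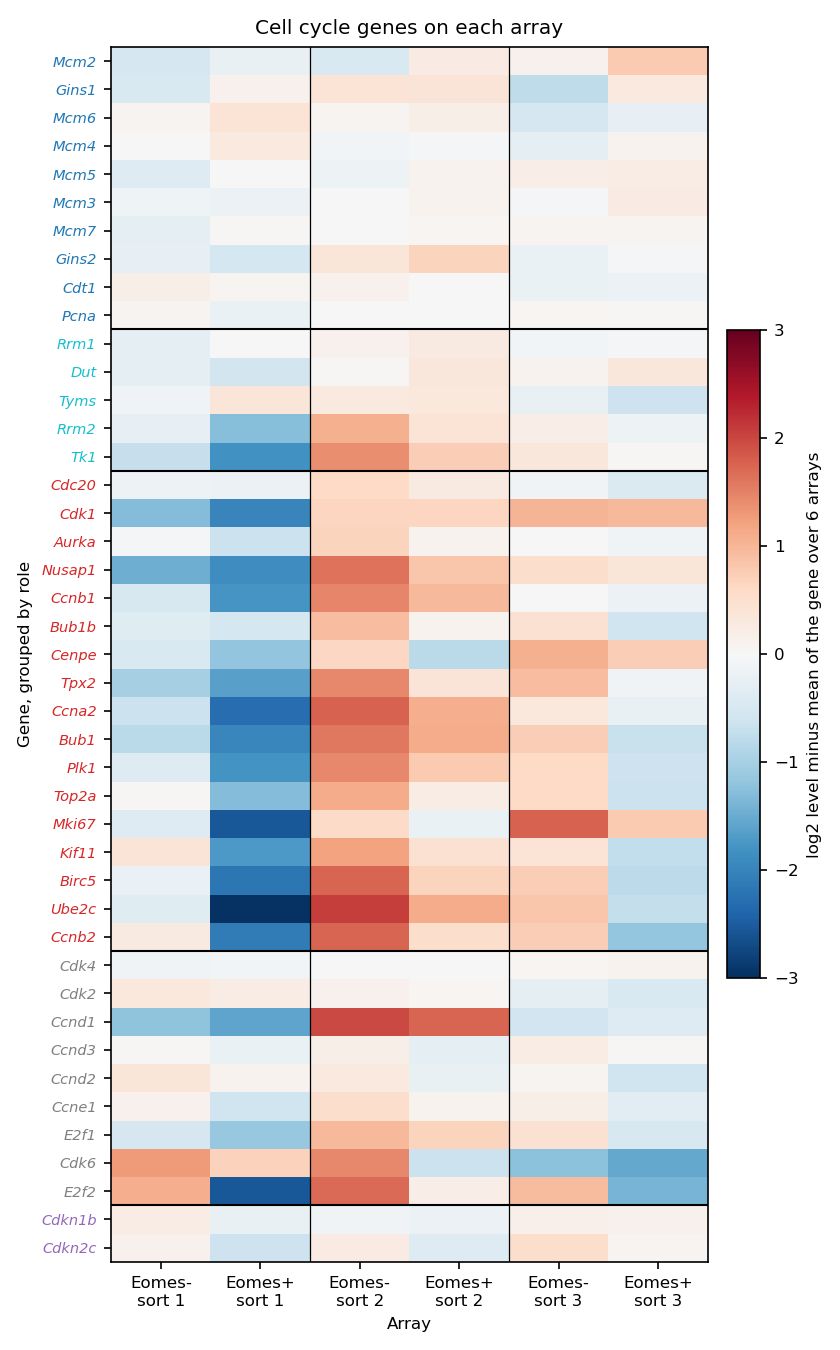
Heat map of the 43 tested genes (rows, coloured by role and separated by lines) on the 6 arrays (columns, in pairs by sort). Colour is the log2 level minus the mean of the gene over the 6 arrays. In the mitosis block, 14 of 17 genes are reddest in the Eomes-negative array of sort 2 and 15 of 17 are bluest in the Eomes-positive array of sort 1.

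The blocked fit called cyclin B2 and 4 other regulators of the mitotic spindle and chromosomes. Ccnb2, the cyclin that activates CDK1 at the entry into mitosis, stood at -0.50, 0.99 and -0.02 in the Eomes-negative arrays of sorts 1, 2 and 3, and at -2.86, -0.23 and -1.93 in the Eomes-positive arrays. It was lower in the Eomes-positive array of each sort, but the groups overlapped because the level of sort 2 was high in both. The difference was -1.83 (SE 0.75, n = 3 per group), or 3.55-fold, with a limma adjusted p of 0.413 on group alone and 0.0307 in the blocked fit (SE 0.25). Top2a, the topoisomerase that untangles replicated chromosomes, stood at -2.35, -1.27 and -1.79 in Eomes-negative cells and at -3.68, -2.15 and -3.02 in Eomes-positive cells. The overlap was again between the Eomes-positive array of sort 2 and the Eomes-negative array of sort 1, and the difference of -1.15 (SE 0.47) had a limma adjusted p of 0.412, or 0.0212 in the blocked fit (SE 0.13). The Ccnb2 probe lies at chr9:70255671-70255730 and the Top2a probe at chr11:98855522-98855581 (mm9, minus strand for both).

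Birc5, which encodes survivin of the chromosomal passenger complex, stood at -0.25, 1.70 and 0.70 in Eomes-negative cells and at -2.21, 0.62 and -0.82 in Eomes-positive cells. Its difference was -1.52 (SE 0.83; limma adjusted p 0.625, blocked 0.0291), and its other 2 probes gave -1.60 and -1.25. Plk1, the polo kinase of mitotic entry and the spindle, stood at -3.12, -1.30 and -2.14 in Eomes-negative cells and at -4.54, -1.95 and -3.36 in Eomes-positive cells. In both genes the Eomes-positive array of sort 2 lay above the Eomes-negative array of sort 1, so the order of the groups showed only within sorts. Plk1 differed by -1.09 (SE 0.77; limma adjusted p 0.759, blocked 0.0466). Tpx2, a spindle assembly factor that activates Aurora A, stood at -4.97, -2.54 and -3.06 in Eomes-negative cells and at -5.61, -3.60 and -4.08 in Eomes-positive cells. It was dim, and its difference was -0.90 (SE 0.80; limma adjusted p 0.853, blocked 0.0335).

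The other mitosis genes passed in neither fit. Ube2c, the ubiquitin-conjugating enzyme of the anaphase-promoting complex, stood at -1.46, 0.98 and -0.26 in Eomes-negative cells and at -4.06, 0.03 and -1.80 in Eomes-positive cells, and its differences within sorts ran from -2.60 to -0.95 (limma adjusted p 0.744, blocked 0.0705). Mki67, the marker of cycling cells, stood at -2.05, -1.08 and 0.10 in Eomes-negative cells and at -4.22, -1.86 and -0.88 in Eomes-positive cells. Its differences within sorts were -2.17, -0.78 and -0.98 (blocked limma adjusted p 0.0931), and its other probe gave the same overall difference of -1.31. Ccna2, cyclin A of S phase and G2, stood at -1.53, 0.87 and -0.57 in Eomes-negative cells and at -3.18, 0.19 and -1.11 in Eomes-positive cells. Nusap1, a protein of spindle microtubules, stood at -3.96, -0.86 and -1.96 in Eomes-negative cells and at -4.35, -1.66 and -2.12 in Eomes-positive cells. For Ccna2 and Nusap1 the sorts differed more than the groups did, with group differences of -0.96 and -0.45. The remaining tested mitosis genes were Kif11 (the spindle motor Eg5, -1.33), Bub1 and Bub1b (kinases of the spindle checkpoint, -1.01 and -0.69), Cenpe (a kinetochore motor, -0.83), Ccnb1 (cyclin B1, -0.65), Aurka (Aurora A, -0.42), Cdk1 (the mitotic kinase, -0.25) and Cdc20 (an activator of the anaphase-promoting complex, -0.22). The other probes of Ccnb1 and Ube2c pointed the same way as the chosen ones, whereas the 2 dimmer Cdk1 probes, at background, had positive differences.

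**Figure D3:**
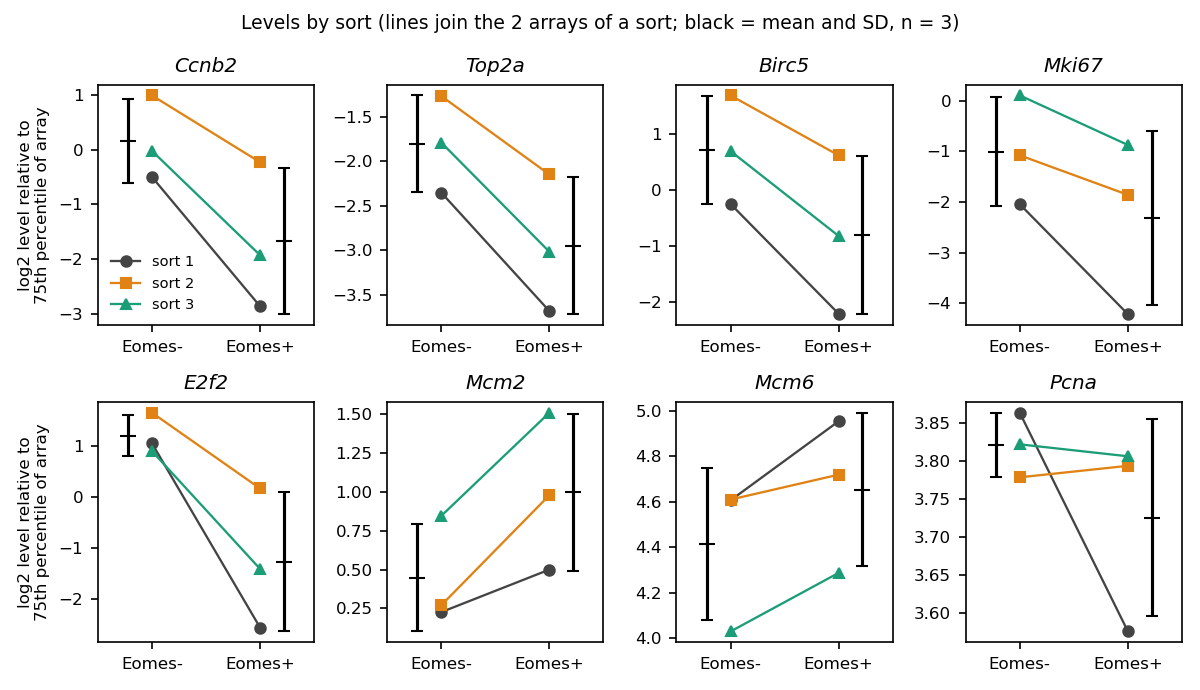
Levels of 8 genes in Eomes-negative and Eomes-positive cells, as log2 level relative to the 75th percentile of the array, with axes that differ between panels. Lines join the pair of arrays of a sort and black bars are mean and SD (n = 3); the lines of Ccnb2, Top2a, Birc5, Mki67 and E2f2 all descend, those of Mcm2 and Mcm6 all ascend, and those of Pcna span a narrow range.

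The replication genes had smaller differences. Of the 10 tested genes of the origin and fork, 8 had positive differences and 4 were higher in Eomes-positive cells in every sort (40%, against 25.3% of all genes). In either limma fit 0 passed. On group alone 0 had an unadjusted p below 0.05, whereas Mcm2 had an unadjusted p of 0.0122 in the blocked limma fit. Mcm2, a subunit of the MCM helicase, stood at 0.23, 0.27 and 0.84 in Eomes-negative cells and at 0.50, 0.98 and 1.51 in Eomes-positive cells, a difference of 0.55 (SE 0.32; limma adjusted p 0.654, blocked 0.0900). It was higher in the Eomes-positive array of each sort, by 0.27, 0.71 and 0.66, but the groups overlapped. Mcm6, of the same helicase, stood at 4.61, 4.61 and 4.03 in Eomes-negative cells and at 4.95, 4.72 and 4.29 in Eomes-positive cells. Gins1, a subunit of the GINS complex that joins the helicase, stood at -1.96, -1.09 and -2.26 in Eomes-negative cells and at -1.38, -1.11 and -1.20 in Eomes-positive cells. Pcna, the sliding clamp of DNA polymerases, stood at 3.86, 3.78 and 3.82 in Eomes-negative cells and at 3.58, 3.79 and 3.81 in Eomes-positive cells. Pcna therefore varied little, with a difference of -0.10 and a 95% interval from -0.43 to 0.24. The other helicase genes Mcm3, Mcm4, Mcm5 and Mcm7 had differences of 0.13, 0.24, 0.22 and 0.12. Cdt1, which loads the helicase, and Gins2 had differences of -0.06 and 0.06.

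Nucleotide supply was split. Rrm1, the large subunit of ribonucleotide reductase, stood at 0.71, 1.11 and 0.89 in Eomes-negative cells and at 0.98, 1.25 and 0.95 in Eomes-positive cells. Rrm2, its small subunit, whose protein is made in S phase, stood at 0.76, 2.07 and 1.21 in Eomes-negative cells and at -0.28, 1.43 and 0.85 in Eomes-positive cells. The subunits thus lay in opposite directions in every sort, at differences of 0.16 and -0.68, although neither passed (blocked limma adjusted p 0.364 and 0.0913). Tk1, the thymidine kinase of S phase, stood at -2.17, -0.06 and -1.13 in Eomes-negative cells and at -3.28, -0.72 and -1.42 in Eomes-positive cells, a difference of -0.69. Its second measured probe gave -0.34. Tyms (thymidylate synthase) and Dut (deoxyuridine triphosphatase) had differences of 0.02 and 0.09, with mixed signs over the sorts, and another Dut probe gave -0.33.

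**Figure D4:**
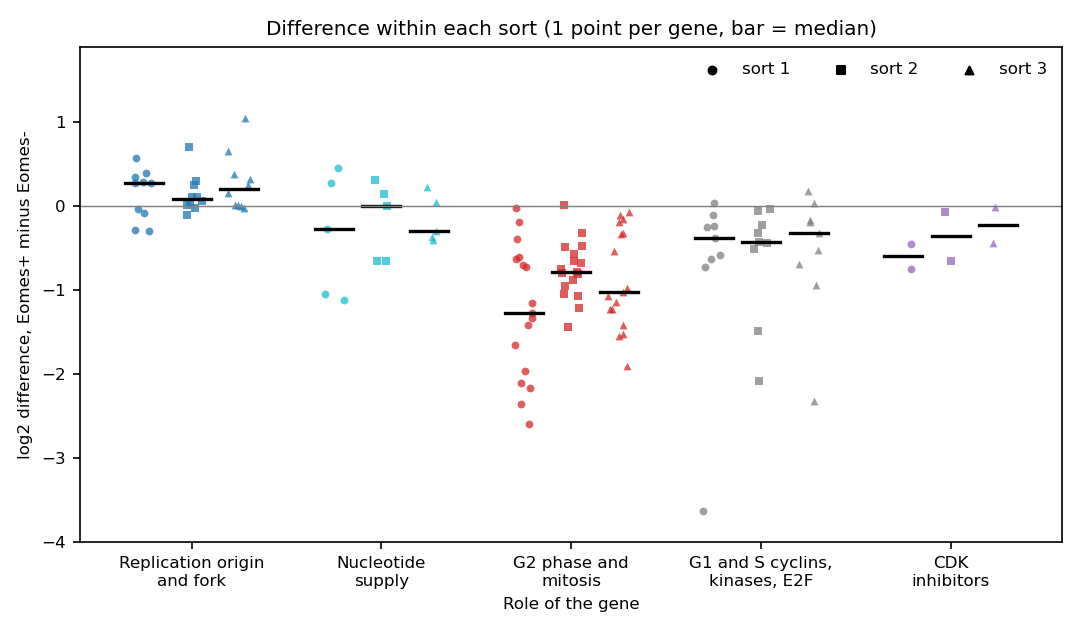
Difference between the Eomes-positive and Eomes-negative array of each sort (log2), by role; each point is a gene, the shape is the sort and the bar is the median of the role. The points of the mitosis genes lie below 0 in all 3 sorts except Cdk1 in sort 2, while those of the replication origin and fork lie around or above 0.

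Of the 9 tested G1 and S regulators, 7 (77.8%, against 27.1% of all genes) were lower in Eomes-positive cells in every sort. None passed in either limma fit. On group alone 1 (E2f2) had an unadjusted p below 0.05, a share close to the 12.2% of all genes. In the blocked limma fit Ccne1, E2f1, Ccnd2 and Ccnd3 also had an unadjusted p below 0.05. E2f2, an activator E2F factor, stood at 1.06, 1.67 and 0.91 in Eomes-negative cells and at -2.57, 0.17 and -1.41 in Eomes-positive cells. The groups did not overlap, and the difference of -2.48 (SE 0.70), or 5.58-fold, was larger than that of any other tested member, with a limma adjusted p of 0.191, or 0.0535 in the blocked fit. Its probe lies at chr4:135750562-135750621 (mm9, plus strand). E2f1, a related activator, was dimmer and stood at -3.23, -1.75 and -2.27 in Eomes-negative cells and at -3.86, -2.07 and -3.21 in Eomes-positive cells. Ccne1, cyclin E of the entry into S phase, stood at -0.08, 0.33 and -0.01 in Eomes-negative cells and at -0.80, -0.09 and -0.54 in Eomes-positive cells, without overlap (difference -0.56, limma adjusted p 0.438, blocked 0.0598). Groups that did not overlap were found in 3 of 43 members (6.98%), all lower (E2f2, Ccne1 and Cdkn2c), against 9.68% of all genes lower and 8.53% higher without overlap.

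The cyclin D genes, which link growth signals to CDK4 and CDK6, differed from each other. Ccnd2 stood at 5.25, 5.17 and 4.97 in Eomes-negative cells and at 5.0, 4.66 and 4.28 in Eomes-positive cells. Ccnd3 stood at 3.48, 3.62 and 3.68 in Eomes-negative cells and at 3.25, 3.19 and 3.49 in Eomes-positive cells. Both were lower in the Eomes-positive array of every sort, by 0.25 to 0.69 for Ccnd2 and by 0.19 to 0.44 for Ccnd3, with limma adjusted p of 0.497 and 0.587 (blocked 0.105 and 0.177). Ccnd1 stood at -2.71, 0.47 and -2.08 in Eomes-negative cells and at -3.08, 0.24 and -1.89 in Eomes-positive cells, so that sort 2 stood apart in both groups and the group difference was -0.14. Among their kinases Cdk4 had a difference of 0.01, Cdk2 of -0.11 and Cdk6 of -0.99, the last measured on 3 arrays.

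Both tested CDK inhibitors were lower in Eomes-positive cells in every sort. Cdkn2c, which encodes p18 and blocks CDK4 and CDK6, stood at 0.01, 0.14 and 0.41 in Eomes-negative cells and at -0.73, -0.51 and -0.03 in Eomes-positive cells. The groups did not overlap, with a difference of -0.61 (SE 0.23; limma adjusted p 0.360, blocked 0.0518). Cdkn1b, which encodes p27 of resting cells, stood at 2.81, 2.5 and 2.75 in Eomes-negative cells and at 2.36, 2.43 and 2.74 in Eomes-positive cells, and most of its difference of -0.18 came from sort 1.

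Between sorts, the mitosis genes were higher in sort 2 than in sort 1 in both groups. Of the 17 mitosis genes all were higher in sort 2, with a median of 2.21 (log2, group taken into account), beside 0.21 for the replication genes and -0.04 for all genes; the median was 1.82 in Eomes-negative and 2.59 in Eomes-positive cells. In limma, 11 of 43 members rose from sort 1 to sort 2 and 0 fell, which is 25.6% against 1.97% of all genes higher and 0.0914% lower (2.06% in either direction). They were 8 mitosis genes (Top2a, Birc5, Plk1, Tpx2, Bub1, Ccna2, Nusap1 and Cdk1), Tk1, E2f1 and Ccnd1. Ccnd1 differed by 3.25 (SE 0.18, limma adjusted p 0.0107) and Nusap1 by 2.89 (SE 0.19, limma adjusted p 0.0166). Quantile normalization called 6 of the members in place of 11. The pair of arrays of a sort came from the same pool of mice, so the p-values between sorts set single pools against the spread within pools and do not measure the spread between pools.

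**Figure D5:**
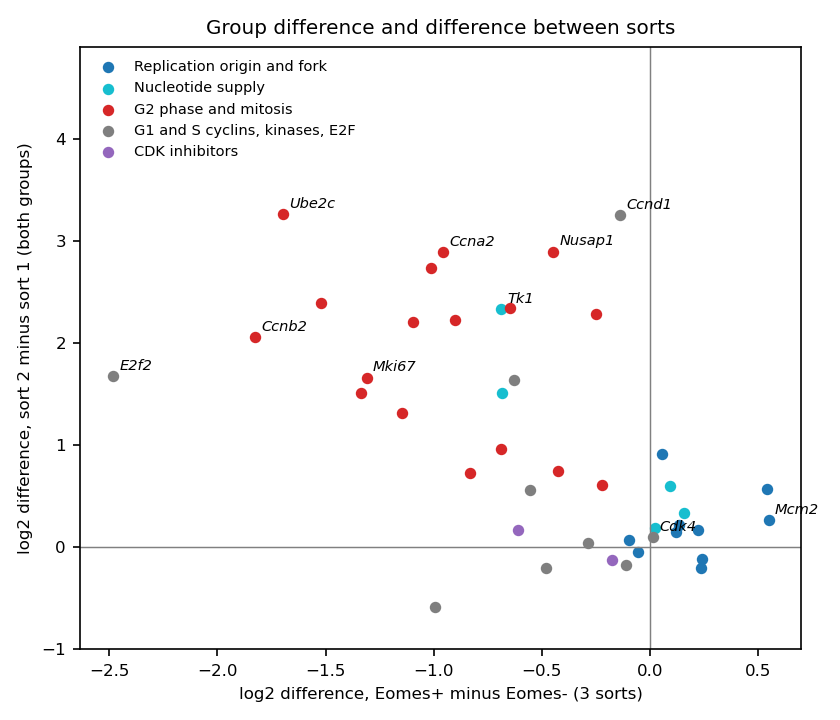
Difference between sort 2 and sort 1 (vertical, log2, both groups) against the difference between Eomes-positive and Eomes-negative cells (horizontal, log2), 1 point for each of the 43 tested genes, coloured by role. Mitosis genes lie to the left and above 0, replication origin and fork genes lie near 0 on both axes, and Ccnd1 lies high with a group difference near 0.

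Among the 17 mitosis genes the highest of the 6 arrays was the Eomes-negative array of sort 2 in 14 and that of sort 3 in 3. The lowest was the Eomes-positive array of sort 1 in 15 and that of sort 3 in 2. The difference between the groups within a sort was greatest in sort 1 for 11 genes, in sort 2 for 4 and in sort 3 for 2. The Eomes-positive array of sort 2 lay above the Eomes-negative array of sort 1 on the mitosis median, at 0.53 against -0.38 relative to each gene's mean.

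Sort 3, from the youngest mice and the smaller RNA input, differed from sorts 1 and 2 across the array, and the share of members past the threshold was below that of all genes. Of the 43 members, 9 passed in limma (5 higher and 4 lower), against 27.5% of all genes (14.5% higher and 13% lower). Normexp background correction called 15 members and no filter on dim probes 14. Mki67 rose by 1.91, Cdk1 by 1.49, Cenpe by 1.36, Mcm2 by 0.68 and Tpx2 by 0.61, whereas Cdk6 fell by 2.08, Ccnd1 by 0.72, Cdk2 by 0.56 and Mcm6 by 0.56. Mki67 was thus the only member past the threshold here that differed by more than 1.5 and was measured on every array. Of the mitosis genes 4 (23.5%) were among the higher ones and 0 among the lower ones, and 8 of the 17 had positive differences. Against sort 1 alone their median was 0.96 in Eomes-negative and 1.39 in Eomes-positive cells, and against sort 2 alone it was -0.79 and -0.87. Age, RNA input and slide differed together for sort 3 and cannot be told apart.

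Markers of other cells also differed between sorts. Summed levels (in units of the 75th percentile of the array) of 10 erythroid precursor genes were 18.9 and 19.4 in the Eomes-negative and Eomes-positive arrays of sort 1, 176.2 and 171.5 in sort 2, and 130.4 and 214.8 in sort 3. Those of 14 myeloid genes were 77.3 and 84.5, then 369.6 and 380.1, then 85.5 and 86.6. Those of 7 plasma cell genes were 18.1 and 12.8, then 88.2 and 69.4, then 25.6 and 22.4. Each of the 3 lists was thus higher in sort 2 than in sort 1, as the mitosis genes were. The B cell, NK cell and type 17 γδ T cell lists described below were higher in sort 2 as well, whereas the γδ and αβ T cell lists were not. In Eomes-positive cells the erythroid sum was higher in sort 3 than in sort 2, unlike the mitosis median. Within sort 1, where the mitosis median was -1.27, the erythroid and myeloid sums were close between the groups. The plasma cell sum was lower in Eomes-positive cells there. In that sort Hba-a1 (4.14 and 4.18) made up most of the erythroid sums, and Siglech (5.81 and 6.10) most of the myeloid sums. Single genes of the lists differed more in sort 1, and in both directions. The macrophage genes Csf1r, Adgre1 and Cd14 stood at 2.61, 0.52 and -1.61 in the Eomes-negative array and at -0.09, -2.79 and -4.62 in the Eomes-positive array. The myeloid genes Lyz1, Lyz2, Itgam, Siglech and Flt3 were higher in that Eomes-positive array, whereas Fcgr3 and Ly6g were lower. In sort 2 Csf1r, Adgre1, Cd14 and Fcgr3 were lower in the Eomes-positive array, whereas others, among them Lyz1, Lyz2 and Itgam, were higher. In sort 3 Csf1r, Adgre1, Cd14 and Fcgr3 were higher in the Eomes-positive array. The erythroid genes Klf1, Epor and Tfrc stood at -5.8, -3.3 and -2.5, and at -7.2, -4.5 and -3.6, in sort 1. Hba-a1, Alas2, Ahsp, Slc4a1 and Ermap were higher in its Eomes-positive array. The plasma cell gene Jchain stood at 0.64 and -3.73. No gene of these 3 lists was at background on all 6 arrays, and 7, 12 and 5 genes respectively were measured on every array. Their part in the differences between sorts and between groups was not tested.

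For the lists of cell type markers only the fit on group alone is given, in which no mitosis gene passed either. In it the erythroid, myeloid, plasma cell and B cell lists had 0 genes past limma's adjusted p of 0.05. At an unadjusted p below 0.05 they had 0 of 9, 0 of 13, 3 of 6 and 1 of 8 tested genes, all lower, against 12.2% of all genes in either direction. B cell sums in sorts 1, 2 and 3 were 16.0, 19.9 and 24.0 in Eomes-negative arrays and 9.68, 14.1 and 19.1 in Eomes-positive arrays. They were thus lower in Eomes-positive cells in every sort, with 6 of 10 genes measured on all arrays. Cd79b, the largest part of the Eomes-negative sums, was lower in every sort, whereas Cd22 was higher in every sort. Sums of 6 genes listed for αβ T cells (Cd4, Cd8a, Cd8b1, Cd5, Cd6 and Foxp3) were 19.9 to 24.7 and 36.2 to 49.6. The 1 gene called, Cd8b1, was lower, and it encodes the CD8β used for depletion. No αβ receptor gene of the list was on the array, and Cd5 and Cd6 made up most of each sum. These sums therefore do not measure αβ T cell content. Sums of 8 genes of type 17 γδ T cells, the cells that make interleukin 17, were 1.12 to 1.83 in Eomes-positive and 24.9 to 33.7 in Eomes-negative arrays, and 6 of the 7 tested genes were lower. Of these, Il23r and Il1r1 were measured on 3 arrays, at -6.43 or below in every Eomes-positive array. They entered the test only through the group where they were high. Blk was measured on 4 arrays, and Ccr6, Maf and Zbtb16 on all 6. Sums of 8 NK cell and type 1 innate lymphoid genes were 109.8 to 150.4 and 36.3 to 119.8, and 4 of the 7 tested were higher. Eomes is 1 of these 4 and part of the sums, and its difference was set by the sort on its reporter. Gzma made up most of the sums of the Eomes-negative arrays but did not follow the groups (difference -0.14, limma adjusted p 0.992). It was lower in the Eomes-positive array in sorts 1 and 2 and higher in sort 3. The αβ T cell, type 17 and NK cell lists each held genes that moved with the groups. The part of these lists in the lower mitosis genes was not tested.

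Genes of the same steps outside the 47 were also measured. Of 55 further replication genes 50 were tested, with a median difference of 0.08, and 29 were positive. Of 67 further mitosis genes 52 were tested, with a median of -0.38, and 29 (55.8%, against 27.1% of all genes) were lower in every sort. None of either list passed in limma on group alone, although 3 replication genes higher, 1 replication gene lower and 3 mitosis genes lower had an unadjusted p below 0.05. In the blocked fit 6 of the mitosis list were lower (11.5%, against 4.33% of all genes; Cdca8, Cdkn3, Cks1b, Kif22, Prc1 and Shcbp1) and 1 was higher (against 3.66% of all genes), Cks2 at 0.79, while 1 of the replication list was lower, Uhrf1 at -0.61. Cdkn3, a phosphatase of CDKs, differed by -1.51 (blocked limma adjusted p 0.0375) and Kif22, a chromosome motor, by -0.98 (blocked limma adjusted p 0.0219). Between sorts 1 and 2, 10 of the 52 mitosis genes (19.2%, against 1.97% of all genes) were higher in sort 2, and the median was 0.79, beside -0.04 over all genes.

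Of 38 further regulators of G1 and rest, 37 were tested and 1 passed in limma on group alone, a share close to the 2.77% of all genes. Cdkn1c, which encodes the CDK inhibitor p57, stood at -3.26, -3.57 and -3.78 in Eomes-negative cells and at -2.25, -2.25 and -2.5 in Eomes-positive cells. It was higher in Eomes-positive cells in every sort without overlap, by 1.21 (SE 0.19; limma adjusted p 0.0343), but with sort 1 or sort 2 left out 0 of all genes passed, Cdkn1c included. In the blocked fit 4 were lower (10.8%, against 4.33% of all genes). Mycn, a MYC family factor, and Cdkn2a, the locus of p16 and p19, were measured on 3 Eomes-negative arrays and on 1 Eomes-positive array, so the size of their difference is not given. Wee1, the kinase that restrains CDK1, differed by -0.64 and Klf2, a factor of resting T cells, by -0.65.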

How the data were processed

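Total RNA of 6 samples was measured on one-colour arrays. Per the file headers and the submitters' processing notes, the authors' scanner files hold background-subtracted, detrended intensities on a linear scale from Agilent Feature Extraction 10.7.3.1, without normalization between arrays. The authors' deposited table of processed values, whose intensities share a 75th percentile of 1497 to 1506 on every array, served as an alternative. Each of 39429 probes had 4 spots. Outlier spots were left out, the log2 signals of a probe's spots were averaged and the array's 75th percentile was subtracted. Probes were named by RefSeq accession (27508 probes, 2017 renamed) or kept the name in the file (11921), and the 47 members had 68 probes. Probe positions are mm9 as in the files; where a probe lies within its gene was not analysed here.

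The comparisons of groups and of sorts used limma 3.58.1 (R 4.3.3; lmFit, eBayes, two-sided), with Benjamini-Hochberg adjustment over all 16413 genes and a threshold of 0.05; the procedure was tested on simulated data. The smallest two-sided p of an exact permutation test at 3 against 3 that ignores the pairs is 0.1. The numbers in the labels pair the arrays because both arrays of a number come from the same sort, and their deviations from the group means correlated at 0.81 to 0.82. Values on every array are given for members past the threshold in either fit, the 3 greatest group differences per role and the 4 greatest ranges between sort means among members measured on all 6 arrays, and Mki67, Top2a, Pcna, Ccnd2, Ccnd3 and Cdkn1b. Of the other lists, called genes were named, those called only in the blocked fit after their values were seen. The members and the lists were chosen with earlier results of these data known. Alternatives were the sort or slide as a block, normexp background correction (offset 50), median or quantile scaling, other filters and probe rules, the deposited table, and leaving out sorts or arrays.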

Additional observations from a re-analysis of the deposited data

How the results depend on the processing

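Of 110 alternative values of the counts and medians, 78 stayed within the limits set. The limit was 1.5 times for a count and, for a median, the SD of the median differences within the 3 sorts. The median of the replication genes stayed positive in all alternatives run, from 0.02 to 0.22. With the replicate block (the sort), 1310 genes passed in place of 454, and 5 members in place of 0; the block changed no other call among the named members. Without a filter on dim probes 246 genes passed. With any sort or array omitted, 0 to 258 genes passed, and a mitosis median between -1.54 and -0.36, against -0.96. That median was -1.60 with the slide as a block, where slide 1 held 3 arrays, slide 2 held 1 and slide 3 held 2, and -0.52 with normexp background correction.

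Alternatives to the replicate block chosen after seeing the data gave 12 members with normexp, 3 without a filter and 9 with genes measured on all 6 arrays, 4 under each other scaling, probe rule or source, and 0 to 1 with a sort left out. Over all genes, normexp called 1919, no filter 849 of 30342, and genes measured on all 6 arrays 1550 of 13783. The settings with 4 members called 1221 to 1371 genes, and those with a sort left out 142 to 452. Between sort 3 and the others, normexp gave 8004 genes and 15 members and no filter 14961 genes and 14 members, in place of 4519 and 9. Between sorts 2 and 1, normexp gave 836 genes, no filter 679 and quantile scaling 217 genes and 6 members, in place of 338 and 11. The cause of these shifts was not tested. Of 24 named members, 20 kept their direction in every alternative run; Pcna and Tk1 turned in 1, Nusap1 in 2 and Ccnd1 in 3. Dim probes limit Cdk1, Tpx2, Bub1 and Cdk6.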
